A study of Mus musculus with 93 samples.

Results

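The DNA replication genes are 40 genes whose proteins load, start and run the replication fork or supply its nucleotides. They were taken as a list and found by symbol in the count table, where all 40 of the 24514 symbols were present. One of them is listed under its older symbol 2810417H13Rik, which the annotation names Pclaf. Their read counts were compared across cardiac progenitor cells (CPCs) of the first heart field, marked by GFP from the pacemaker channel gene Hcn4, and of the second heart field, marked by RFP. The RFP comes from the Ai9 reporter after Tbx1-Cre and stays on in every descendant of a cell that once expressed Tbx1, so it records a lineage and not present Tbx1 expression. In vivo CPCs came from mouse embryos carrying Hcn4-GFP, Tbx1-Cre and Ai9, and in vitro CPCs from spheroids of embryonic stem cells with the same 3 alleles, taken at day 5.5 of differentiation. The sample titles give embryonic day 8.5, whereas the protocol and the study's methods give E7.75. Each library was made from 10 sorted cells, with 5 GFP+ and 4 RFP+ libraries in vivo and 38 GFP+ and 46 RFP+ libraries in vitro. The labels do not tie wells to embryos or to differentiations, so n counts wells and the p-values measure the spread between wells, part of which may be technical.

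Replication of the genome happens once per cell cycle in S phase. In G1, the origin recognition complex (Orc1 to Orc6), Cdc6 and Cdt1 load the ring of Mcm2 to Mcm7 on DNA, and geminin (Gmnn) later blocks Cdt1 so that no origin is loaded again. Mcm10, Cdc45 and the GINS complex turn the ring into a moving helicase. DNA polymerases then copy the strands on the sliding clamp Pcna, which the Rfc complex loads, while Rpa coats single strands, Fen1 and Lig1 join Okazaki fragments, and Rrm1, Rrm2 and Tyms make deoxynucleotides. Many of these genes are transcribed under E2F factors as cells pass from G1 into S phase, which is why their summed mRNA is widely used as a marker of cycling cells. In RNA pooled from 10 cells, fewer cells in S phase and less of a transcript per cell cannot be told apart.

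Between 712732 and 2525460 reads per library were counted on genes in vivo, and between 445071 and 5658882 in vitro apart from 1 GFP+ library of 6288 reads (well C9). That library stayed in all tests, and in vitro GFP+ levels below are given over the 37 other libraries. Of the 40 members, 34 to 38 were detected per in vivo GFP+ library and all 40 in every RFP+ library of both sources. In the same libraries 6189 to 8302 genes of any kind were detected in in vivo GFP+ cells and 10260 to 13050 in in vivo RFP+ cells. Hcn4 was at 1.06 to 33.7 CPM in in vivo GFP+ libraries and 0 to 1.45 CPM in RFP+ libraries, and Tbx1 was at 0 in all 5 GFP+ and 0 to 8.67 CPM in RFP+ libraries. CPM are counts scaled to 1e+06 counts per library with TMM factors. The 10 cardiomyocyte markers summed to 18010 to 53200 CPM in in vivo GFP+ and 1191 to 2307 CPM in in vivo RFP+ libraries. In vitro they summed to only 20.4 to 1273 CPM (median 55.3) in GFP+ and 18.8 to 138 CPM (median 60.6) in RFP+ libraries. By their well names, the in vitro populations lay in different plate columns (RFP+ in 1 to 6, GFP+ in 7 to 11). The embryo wells lay in columns 11 and 12, GFP+ in rows A to E and RFP+ in rows F to H, and the labels do not say whether all wells shared a plate. In both sources an effect of position cannot be told apart from one of population.

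Short words known as E2F binding sequences are shown for the promoters of 3 members, with Rrm2 as a strongly expressed member without one. The 3 were those with a word inside the 160 bases that could be printed. They hold an overlapping pair of words, a pair plus a separate word, and a single word. RefSeq promoters (GRCm38.p6, the assembly of mm10, from 250 bases before to 50 after each start site) were found for 32 of the 40 members and not for Gmnn, Mcm4, Gins1, Gins2, Gins4, Prim2, Pole and Rfc2. The search used the exact words TTTCCCGC, TTTCGCGC, TTTGCCGC and TTTGGCGC on both strands. The 160 bases up to the start (up to 2 bases before it for Orc3 and 13 for Rrm2) are printed 5′ to 3′ on the strand of the gene, with E2F words in capitals.
Mcm5 promoter, chr8:75109349-75109508, plus strand: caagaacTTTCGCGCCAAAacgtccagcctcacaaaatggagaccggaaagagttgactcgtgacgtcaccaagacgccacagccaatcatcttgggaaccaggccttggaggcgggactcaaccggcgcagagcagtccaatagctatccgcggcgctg
Mcm6 promoter, chr1:128359706-128359865, minus strand: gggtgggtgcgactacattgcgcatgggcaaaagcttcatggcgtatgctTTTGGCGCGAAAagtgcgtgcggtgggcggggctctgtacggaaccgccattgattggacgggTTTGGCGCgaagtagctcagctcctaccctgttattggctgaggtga
Orc3 promoter, chr4:34614945-34615104, minus strand: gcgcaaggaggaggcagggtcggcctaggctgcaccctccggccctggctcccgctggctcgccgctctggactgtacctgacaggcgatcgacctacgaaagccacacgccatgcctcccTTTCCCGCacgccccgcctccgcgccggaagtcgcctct
Rrm2 promoter, chr12:24708081-24708240, plus strand: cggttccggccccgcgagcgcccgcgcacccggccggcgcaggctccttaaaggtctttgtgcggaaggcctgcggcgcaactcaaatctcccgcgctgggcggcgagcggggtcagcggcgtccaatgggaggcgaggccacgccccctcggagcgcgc
In Mcm5, the capitals TTTCGCGCCAAA hold 2 words that share 4 bases, one read on each strand. The same kind of overlap stands in Mcm6 as TTTGGCGCGAAA, with another word nearer to the start. Of the 32 members with a promoter, 13 (40.6%) held at least 1 E2F word, against 5.34% of the 7768 genes tested in vitro that have a promoter and 2.6% of all 27025 promoters. Other replication genes held one in 26.2% of 42 promoters and mitosis genes in 8.33% of 36. The CHR word TTTGAA, known from promoters of mitosis genes, stood in 12.5% of the members, 75% of the mitosis genes and 20.2% of all promoters, and the CCAAT box in 65.6%, 75% and 41.1%. Over the members, the in vitro log2 fold change between RFP+ and GFP+ cells had a median of 0.79 for the 13 with an E2F word and 0.58 for the 19 without. A match describes the letters only and does not show that a factor binds there.

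In vitro, nearly all replication genes took a larger share of the mRNA in RFP+ than in GFP+ cells. Of 40 members, 36 were higher in RFP+ cells (90%), Orc4 and Prim2 were lower, and Orc5 and Cdt1 did not pass the test. This was read against all 9940 genes tested, of which 37.8% were called higher and 40.1% lower. Higher members differed between 1.11-fold and 2.86-fold, with a median log2 difference of 0.76 over the 40 members beside -0.02 over all genes. At 2-fold or more, 10 members were called higher (25%), where 5.25% of all genes were. For 5 members, Mcm4, Mcm6, 2810417H13Rik, Lig1 and Rrm2, every RFP+ library lay above all 37 GFP+ libraries, which held for 1.38% of genes tested, and no member showed the opposite, which held for 1.88%. The call is edgeR's quasi-likelihood test with Benjamini-Hochberg adjusted p under 0.1, the threshold of the study.

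In vivo, 4 members were higher in RFP+ than GFP+ cells by the same test (10% of 40), namely Mcm6, Rfc3, 2810417H13Rik and Tyms, and none was lower. The background was 6.21% of 8503 genes called higher and 3.88% lower. By edgeR, 8 members (20%) were at an unadjusted p under 0.05, as were 1377 of all genes (16.2%). In 8 members, the 4 called together with Gins4, Pole, Pcna and Rfc5, all RFP+ libraries lay above all GFP+ libraries (20%), which held for 13.9% of genes, and no member had all RFP+ libraries below, which held for 3.56%. The log2 difference was above 0 in 28 of 40 members and in 4546 of 8503 genes, with medians of 0.45 and 0.09. The members did not stand above all genes in every fit. Under DESeq2, the tool of the study, the median was 0.32 over 39 members and 0.48 over all genes, with 4 members (10.3%) and 12.6% of 10784 genes called higher. Without the filter on low counts the medians were 0.50 and 0.77, with 10% of members and 10.8% of genes called higher. Under DESeq2 size factors in edgeR the median of all genes moved to -0.04, and 3 members (7.5%) were then called higher, beside 5.67% of all genes. The count of 4 fell to 2 (5%) without the second or without the third RFP+ library, beside 4.56% and 6.09% of all genes called higher. Without the third GFP+ library it was 7, of which 1 was lower, with 15% of members and 7.68% of all genes called higher. The SE of a member's log2 difference was 0.243 to 1.88 in vivo (median 0.533) and 0.0405 to 0.119 in vitro (median 0.0603). Summed over the 40 members, CPM came to 6773 to 8687 in in vivo GFP+, 9525 to 10770 in in vivo RFP+, 4506 to 7239 in in vitro GFP+ and 8923 to 11330 in in vitro RFP+ libraries. The sums of GFP+ and RFP+ libraries did not overlap in either source. Sums over other sets of 40 genes were not taken, so this has no background beside it.

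**Figure D1:**
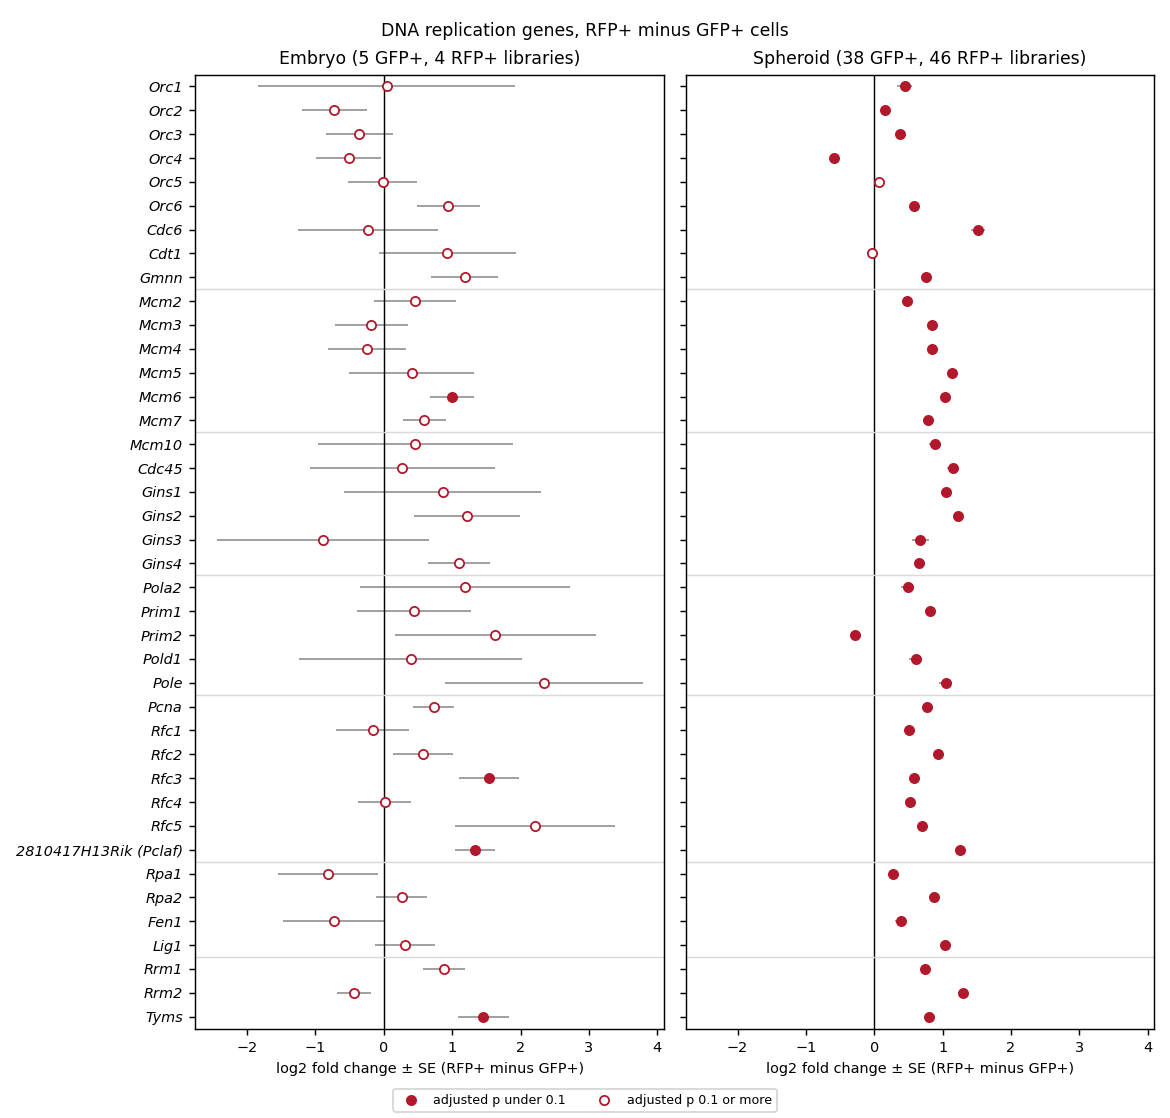
Difference between RFP+ and GFP+ CPCs for each of the 40 replication genes, ordered by role from origin licensing (top) to nucleotide supply (bottom), in embryos (left) and spheroids (right). The x axis is the log2 fold change, bars are 1 SE and filled points have an edgeR adjusted p under 0.1. In vitro 36 filled points lie right of 0 and 2 left of it, whereas in vivo 4 are filled and every bar is wider than in vitro.

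Among the 9 origin licensing genes, 6 were higher in RFP+ cells in vitro and 1 lower, and none was called in vivo. Cdc6, the loader that brings Mcm rings to the origin, had the largest difference of all members in vitro. Its GFP+ libraries were at 13.2 to 88.4 (median 31.5) CPM and its RFP+ libraries at 59.1 to 165 (median 109) CPM in vitro (log2 fold change 1.51, SE 0.10, adjusted p = 6.37e-25). In vivo, Cdc6 stood at 451, 117, 0, 93.2 and 65 CPM in the GFP+ libraries and 173, 161, 56.5 and 108 CPM in the RFP+ libraries, so that both the highest and the lowest value were GFP+ (log2 fold change -0.23, SE 1.02, adjusted p = 0.979). Cdt1, its partner in loading, did not pass the test in either source. In vitro it was at 23.2 to 72.5 (median 51.5) CPM in GFP+ and 34.3 to 79.9 (median 48) CPM in RFP+ libraries (log2 fold change -0.03, SE 0.079, adjusted p = 0.777). The in vivo values of Cdt1 were 37.2, 20.6, 33.7, 32.6 and 18.1 CPM in the GFP+ libraries and 66.6, 48.7, 21.4 and 87.4 CPM in the RFP+ libraries, with 1 RFP+ library among the GFP+ values (log2 fold change 0.93, SE 1.00, adjusted p = 0.816). Gmnn, the inhibitor of Cdt1, was higher in RFP+ cells in vitro, at 219 to 453 (median 308) CPM against 107 to 288 (median 174) CPM (log2 fold change 0.76, SE 0.058, adjusted p = 9.52e-22). For Gmnn in vivo the values were 261, 50.8, 58.7, 176 and 109.7 CPM in the GFP+ libraries and 232, 299, 366 and 320.1 CPM in the RFP+ libraries, and the highest GFP+ library lay within the RFP+ range (log2 fold change 1.18, SE 0.49, adjusted p = 0.229). The 6 subunits of the origin recognition complex, which marks origins throughout the cycle, were not all called in one direction. In vitro Orc6 (log2 0.58, SE 0.044), Orc1 (0.44, SE 0.11), Orc3 (0.37, SE 0.057) and Orc2 (0.16, SE 0.058) were higher in RFP+ cells. Orc5 was not called (0.07, SE 0.064). Orc4 went the other way, with GFP+ libraries at 202 to 337 (median 262) CPM and RFP+ libraries at 102 to 275 (median 169.5) CPM (log2 fold change -0.60, SE 0.055, adjusted p = 1.34e-17). Exons of Orc4 overlap those of Acvr2a and Mbd5 on the other strand in the annotation, and strand use in counting is not given in the sources used here.

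All 6 subunits of the Mcm2 to Mcm7 ring were higher in RFP+ cells in vitro, by log2 0.48 to 1.13. Mcm5 had the largest difference, with 59.4 to 226 (median 139.5) CPM in GFP+ and 189.5 to 458 (median 296) CPM in RFP+ libraries (log2 fold change 1.13, SE 0.07, adjusted p = 3.38e-27). Mcm6 followed at 126 to 301 (median 209) CPM and 331 to 566 (median 440.5) CPM without overlap (log2 fold change 1.03, SE 0.051, adjusted p = 3.08e-34). Mcm4 did not overlap either, at 122 to 277 (median 203) CPM against 292 to 548 (median 366) CPM (log2 fold change 0.84, SE 0.056, adjusted p = 2.98e-25). Mcm3 stood at 92.9 to 206 (median 158) CPM and 191 to 363 (median 286) CPM (log2 fold change 0.85, SE 0.055, adjusted p = 5.75e-26), and its groups overlapped at their edges. Mcm7 stood at 149 to 291 (median 210) CPM and 228 to 465 (median 381) CPM (log2 fold change 0.79, SE 0.046, adjusted p = 3.05e-29). The smallest difference of the ring was that of Mcm2, at 72.2 to 177 (median 124) CPM and 123 to 223 (median 180.4) CPM (log2 fold change 0.48, SE 0.054, adjusted p = 2.16e-13).

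In vivo, only Mcm6 of the ring was called. Mcm6 (chr1:128331590-128359664, minus strand) was at 214, 158, 279, 278 and 154 CPM in the GFP+ libraries and 601, 325, 426 and 444 CPM in the RFP+ libraries (log2 fold change 1.00, SE 0.32, adjusted p = 0.0827). All 4 RFP+ libraries of Mcm6 lay above the GFP+ libraries, yet the call held in only 2 of 9 fits that left out 1 library (adjusted p 0.0366 to 0.299 over all alternatives). Mcm7 was at 578, 297, 171, 425 and 321 CPM in the GFP+ libraries and 618, 528, 480.4 and 593 CPM in the RFP+ libraries (log2 fold change 0.59, SE 0.31, adjusted p = 0.407), where 1 GFP+ library lay inside the RFP+ range. For the other 4 subunits, the RFP+ values all fell inside the range of the GFP+ libraries. Mcm5 ran from 1.40 to 935 CPM within the 5 GFP+ libraries, with 263, 935, 251, 1.40 and 117 CPM, while the RFP+ libraries were at 531, 419, 394 and 361 CPM. Mcm4 was at 42.7, 412, 417, 332 and 836 CPM in the GFP+ libraries and 448, 354, 421 and 228 CPM in the RFP+ libraries (log2 -0.25, SE 0.57). Mcm3 was at 748, 707, 111, 149 and 300.3 CPM in the GFP+ libraries and 503, 354, 171 and 418 CPM in the RFP+ libraries (log2 -0.18, SE 0.53). Mcm2 was at 27.4, 212, 197, 61.5 and 311 CPM in the GFP+ libraries and 285, 228, 199.5 and 227 CPM in the RFP+ libraries (log2 0.46, SE 0.60).

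The 6 genes that activate the helicase were all higher in RFP+ cells in vitro (log2 0.65 to 1.22), and none was called in vivo. Gins2 stood at 42.8 to 138 (median 87.9) CPM in GFP+ and 128 to 275 (median 219.6) CPM in RFP+ libraries in vitro (log2 fold change 1.22, SE 0.065, adjusted p = 1.35e-31). Cdc45 stood at 29.7 to 107 (median 54.5) CPM and 68.8 to 196 (median 138) CPM (log2 fold change 1.15, SE 0.089, adjusted p = 2.91e-21). Gins1 stood at 22.5 to 100.5 (median 55) CPM and 97.9 to 178 (median 128) CPM (log2 fold change 1.06, SE 0.076, adjusted p = 3.43e-23). The groups of all 3 overlapped. In vivo, the GFP+ libraries of Cdc45 and Gins1 held both the highest values and values of 0. Cdc45 was at 90.9, 0, 329.8, 0 and 209.8 CPM in the GFP+ libraries and 162, 146, 170.4 and 170.5 CPM in the RFP+ libraries (log2 0.27, SE 1.35). Gins1 was at 188, 0, 83.7, 10.7 and 0 CPM in the GFP+ libraries and 90.3, 116, 126 and 86.7 CPM in the RFP+ libraries (log2 0.86, SE 1.44). Gins2 was at 42.7, 46.4, 159.9, 178 and 4.26 CPM in the GFP+ libraries and 151, 193, 236 and 256 CPM in the RFP+ libraries (log2 1.22, SE 0.78). Exons of Gins2 overlap Gse1 on the other strand. Gins4 did not overlap between populations in vivo, at 88.7, 72.7, 97.4, 90.9 and 76.7 CPM in the GFP+ libraries and 192, 154, 219 and 196 CPM in the RFP+ libraries (log2 fold change 1.10, SE 0.45, adjusted p = 0.217). Mcm10, Cdc45, Gins1 and Gins3 had at least 1 GFP+ library at 0 and no RFP+ library at 0.

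Of the 5 polymerase and primase genes, Pola2, Prim1, Pold1 and Pole were higher in RFP+ cells in vitro and Prim2 was lower. Pole, the catalytic subunit of the leading strand polymerase, was at 14.8 to 68.3 (median 30.3) CPM in GFP+ and 35.3 to 107 (median 67.8) CPM in RFP+ libraries (log2 fold change 1.04, SE 0.099, adjusted p = 1.23e-16). In vivo Pole was at 0, 5.25, 15, 58.7 and 0 CPM in the GFP+ libraries and 90.3, 68.5, 113 and 61.4 CPM in the RFP+ libraries, and although the RFP+ libraries all lay above, the SE was large (log2 fold change 2.34, SE 1.44, adjusted p = 0.549). Prim1 and Prim2 encode the catalytic and the regulatory subunit of the same primase and differed in opposite directions in vitro. Prim1 was at 61.2 to 174 (median 109) CPM in GFP+ and 138 to 307 (median 199) CPM in RFP+ libraries (log2 fold change 0.81, SE 0.064, adjusted p = 1.04e-20). Prim2 was at 57.2 to 146 (median 93.2) CPM and 51.5 to 135 (median 78.9) CPM (log2 fold change -0.28, SE 0.074, adjusted p = 0.000431), with wide overlap. In vivo neither was called, and Prim2 ran from 0 to 131 CPM among GFP+ libraries.

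In the sliding clamp group, all 7 genes were higher in RFP+ cells in vitro (log2 0.51 to 1.25) and 2 in vivo. Pcna, the clamp itself, stood at 244 to 532 (median 351) CPM in GFP+ and 469.7 to 756 (median 625) CPM in RFP+ libraries in vitro (log2 fold change 0.78, SE 0.041, adjusted p = 1.82e-32). In vivo Pcna was at 175, 266, 408, 238 and 309.9 CPM in the GFP+ libraries and 466, 501, 432 and 538 CPM in the RFP+ libraries, which did not overlap (log2 fold change 0.73, SE 0.30, adjusted p = 0.229). The clamp partner 2810417H13Rik (Pclaf, chr9:65890237-65903266, plus strand), a small protein that binds Pcna, was called in both sources with close fold changes. Its in vivo values were 415, 180.4, 165, 240 and 241 CPM in the GFP+ libraries and 543, 746, 672 and 613 CPM in the RFP+ libraries (log2 fold change 1.33, SE 0.30, adjusted p = 0.0133). In vitro it was at 108 to 556 (median 340.4) CPM in GFP+ and 604 to 1011 (median 839) CPM in RFP+ libraries (log2 fold change 1.25, SE 0.064, adjusted p = 8.81e-33). No RFP+ library of either source overlapped its GFP+ libraries, and the in vivo call held in 15 of 15 alternatives. Rfc3 (chr5:151642756-151651242, minus strand), a clamp loader subunit, was at 87.6, 99.8, 144, 94.6 and 42.6 CPM in the GFP+ libraries and 229, 230.2, 318 and 350.4 CPM in the RFP+ libraries in vivo (log2 fold change 1.53, SE 0.44, adjusted p = 0.0495). That call was lost without the second, without the third and without the fourth RFP+ library, and the adjusted p reached 0.212. In vitro Rfc3 was at 109 to 208 (median 158) CPM and 193 to 306 (median 239) CPM (log2 fold change 0.59, SE 0.048, adjusted p = 5.59e-20). The other loader subunits were higher in vitro by log2 0.51 (Rfc1), 0.94 (Rfc2), 0.52 (Rfc4) and 0.70 (Rfc5), each called. Rfc5 in vivo was at 42.7, 144, 1.25, 0 and 30.9 CPM in the GFP+ libraries and 208, 185, 288 and 150.3 CPM in the RFP+ libraries, without overlap but not called (log2 fold change 2.21, SE 1.17, adjusted p = 0.431).

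Rpa1, Rpa2, Fen1 and Lig1 were all higher in RFP+ cells in vitro, and none was called in vivo. Lig1, the ligase of Okazaki fragments, was at 94.4 to 190 (median 133) CPM in GFP+ and 209.9 to 350.1 (median 287) CPM in RFP+ libraries in vitro, without overlap (log2 fold change 1.04, SE 0.048, adjusted p = 3.37e-36). In vivo it was at 81, 112, 159.9, 198 and 247 CPM in the GFP+ libraries and 201, 162, 241 and 227 CPM in the RFP+ libraries, with overlap (log2 fold change 0.31, SE 0.44, adjusted p = 0.883). Rpa2 and Rpa1 differed in vitro by log2 0.88 (SE 0.054) and 0.28 (SE 0.052), for subunits of one complex, and Fen1 differed by 0.39 (SE 0.078). The difference between the Rpa subunits was not tested.

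Of the 3 genes of nucleotide supply, all were higher in RFP+ cells in vitro, and Tyms alone was called in vivo. Tyms (chr5:30058202-30073617, minus strand), which makes thymidylate, was at 319, 160.3, 121, 99.7 and 109.7 CPM in the GFP+ libraries and 357, 427, 531 and 502 CPM in the RFP+ libraries in vivo, without overlap (log2 fold change 1.45, SE 0.37, adjusted p = 0.0276). This call held in 15 of 15 alternatives, with adjusted p of up to 0.0996. In vitro Tyms was at 136 to 326 (median 223) CPM and 294 to 521 (median 398) CPM (log2 fold change 0.79, SE 0.051, adjusted p = 3.98e-26). A copy named Tyms-ps is in the table with 154 counts over all 93 libraries. Rrm1, the large subunit of ribonucleotide reductase, was at 218, 269, 219, 235 and 162 CPM in the GFP+ libraries and 556, 387, 472 and 261 CPM in the RFP+ libraries in vivo (log2 fold change 0.88, SE 0.31, adjusted p = 0.12), with 1 RFP+ library among the GFP+ values. In vitro it stood at 108 to 319 (median 196) CPM and 215 to 522 (median 319.9) CPM (log2 fold change 0.75, SE 0.062, adjusted p = 1.43e-19). Rrm2 (chr12:24708241-24714146, plus strand), the small subunit that limits the enzyme in S phase, was at 1785, 1084, 1177, 853 and 772 CPM in the GFP+ libraries and 959.8, 699, 946 and 858 CPM in the RFP+ libraries in vivo, where 3 GFP+ libraries lay above every RFP+ library (log2 fold change -0.44, SE 0.24, adjusted p = 0.466). In vitro Rrm2 stood at 211 to 575 (median 385) CPM in GFP+ and 767 to 1221 (median 974) CPM in RFP+ libraries, without overlap (log2 fold change 1.30, SE 0.057, adjusted p = 2.67e-37).

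**Figure D2:**
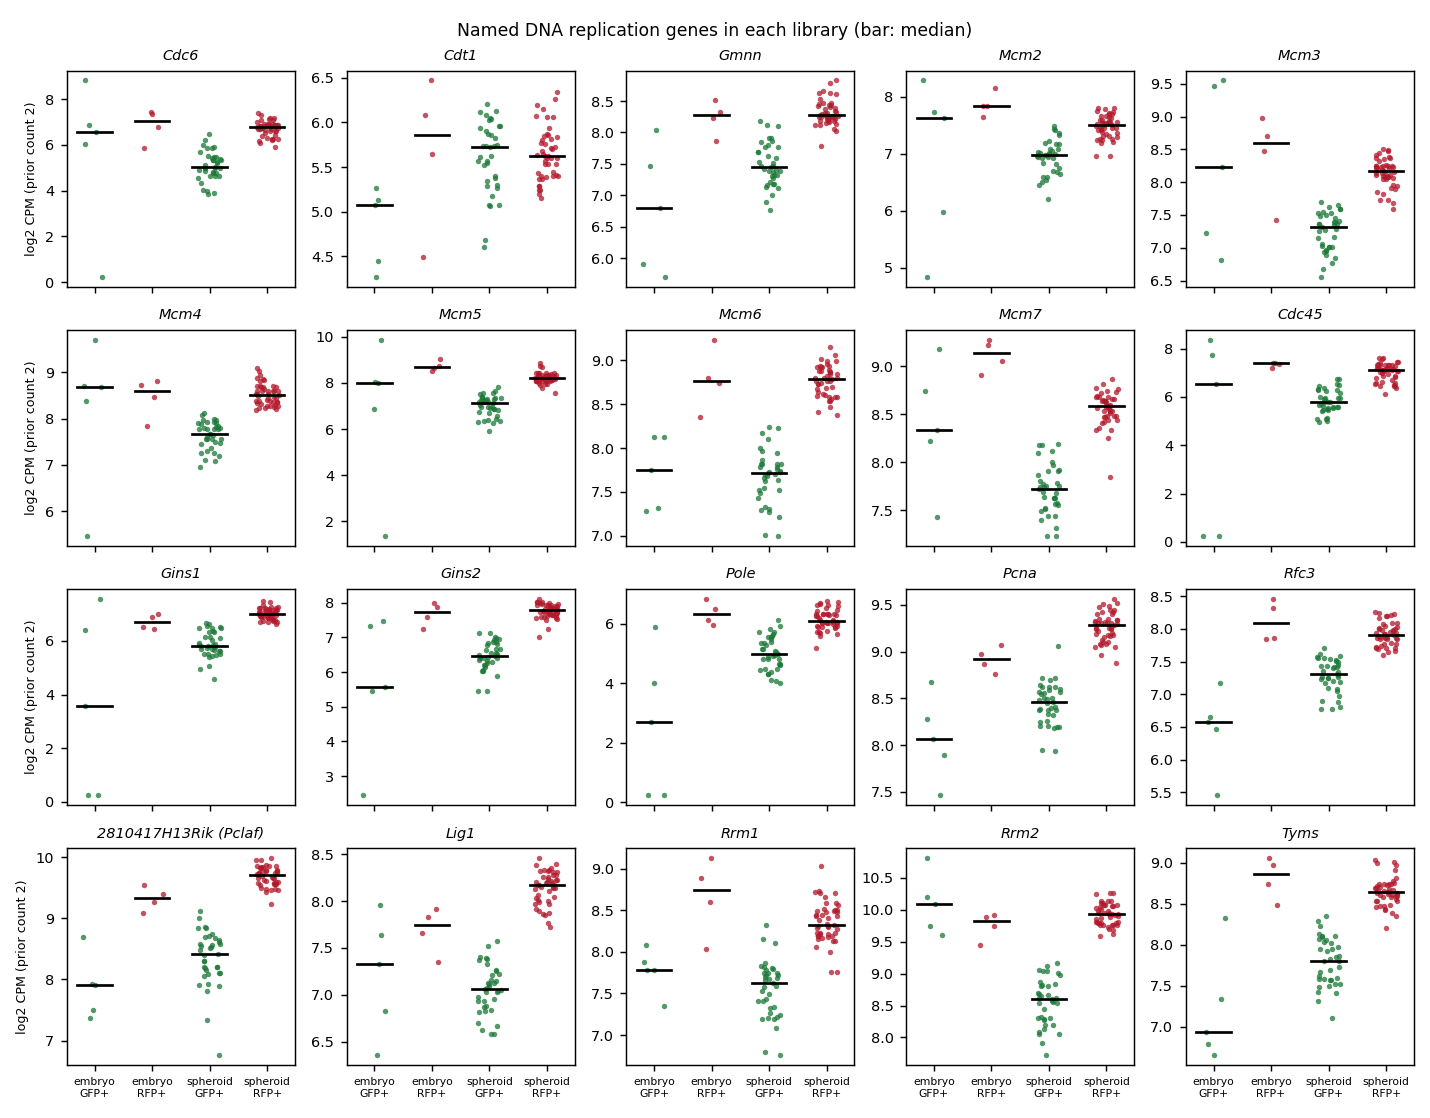
Level of 20 replication genes in every library of 4 groups, as log2 CPM with a prior count of 2 (y axis, a separate scale per gene), leaving out the in vitro GFP+ library of 6288 reads. Bars are medians. In vitro the RFP+ median lies above the GFP+ median in all genes shown but Cdt1, and the in vivo GFP+ points of Cdc45 run from 0 to 329.8 CPM.

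Rrm2 was the only member of the 40 for which edgeR estimates of the RFP+ against GFP+ difference were called different between spheroids and embryos. Its in vitro log2 fold change exceeded the in vivo one by 1.73, SE 0.25, adjusted p = 0.0207. The test scaled that difference by the combined SE of both fits (7 degrees of freedom) and adjusted over 8182 genes. Of these, 2.4% were called higher in vitro and 3.29% lower. The 1 member called higher is 2.5% of the 40, close to the share of all genes. All 4 RFP+ libraries of Rrm2 in vivo and all in vitro were in a like range (699 to 960 CPM and 767 to 1221 CPM), whereas the GFP+ libraries differed (772 to 1785 CPM and 211 to 575 CPM). In 1 of 40 members the unadjusted p of this test was under 0.05, a count not taken over all genes. For Cdc6, the difference was 1.74, SE 1.03, adjusted p = 0.622, and for Mcm6 it was 0.04, SE 0.32, adjusted p = 0.993. Among those not called, SEs ran up to 1.88, so that large differences between the sources were not detectable for Orc1, Pold1, Gins3 or Pola2.

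The in vitro differences were also taken within each of the 8 plate rows, each with GFP+ and RFP+ wells. In every row, 37 or 38 of the 40 members had a higher mean log2 CPM in RFP+ wells, with median differences between 0.58 (row H) and 0.92 (row F). A total of 34 members were higher in all 8 rows and 1, Orc4, was lower in all 8. The same counts were not taken over all genes, so no background stands beside them. RFP+ and GFP+ wells lay in different columns in every row, so the rows do not part column position from population. The row differences of Cdc6 ran from 0.83 to 2.22 and those of Mcm6 from 0.79 to 1.19, whereas those of Cdt1 ran from -0.44 to 0.39. In 7 rows, a pair of RFP+ wells (columns 3 and 4) were more alike than other neighbours (r of 0.975 to 0.994 against 0.946 to 0.966 over genes) but differed by more than sampling noise, with chi-square per degree of freedom of 1.37 to 2.39. They were kept as separate libraries. Summing each pair left the counts at 36 higher and 2 lower.

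**Figure D3:**
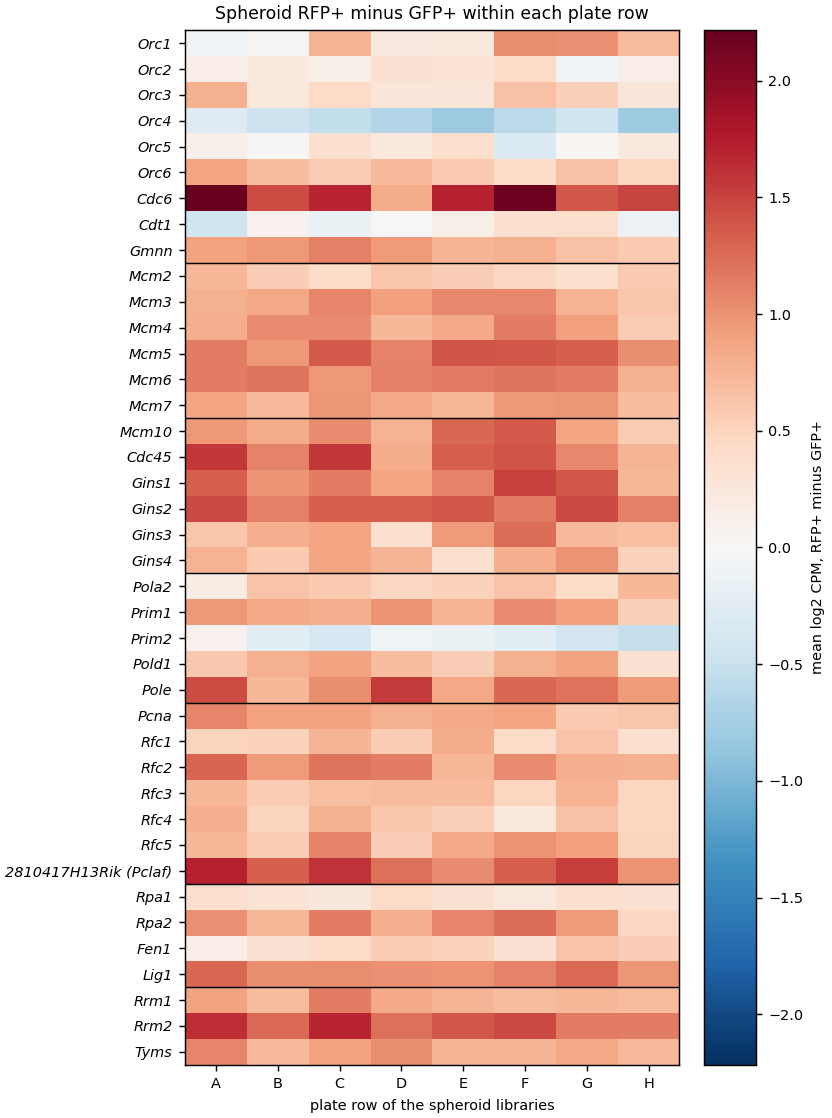
Mean log2 CPM of in vitro RFP+ minus GFP+ wells for each replication gene (rows, by role) within each plate row (columns A to H), leaving out the GFP+ well of 6288 reads. Red marks higher values in RFP+ wells and blue lower ones. Orc4 is blue in all 8 rows, Cdc6 and Rrm2 are red throughout, and Cdt1 changes sign.

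The same population was then compared between spheroid and embryo. These comparisons share the libraries of those above. In RFP+ cells the members were close in level, with 5 higher and 11 lower in vitro of 40, against 22.5% and 20.1% of 11147 genes. The median log2 difference was -0.04, beside 0.04 over all genes. No called member differed by 1.5-fold or more, a count not taken over all genes. At 2-fold or more, 0 members and 9.45% of all genes were called higher in vitro. The members higher in vitro were Gins1 (log2 0.30, SE 0.12), Pcna (0.34, SE 0.082), Rfc1 (0.47, SE 0.096), 2810417H13Rik (0.35, SE 0.084) and Lig1 (0.44, SE 0.098). Lower in vitro were 4 subunits of the Mcm ring, Mcm7 (log2 fold change -0.56, SE 0.087, adjusted p = 1.56e-07), Mcm5 (-0.51, SE 0.11), Mcm2 (-0.40, SE 0.11) and Mcm3 (-0.36, SE 0.13). The other 7 were Gins4, Prim2, Rfc2, Rfc3, Rfc5, Fen1 and Rrm1, with log2 -0.55 (Fen1) to -0.22 (Rfc3). None of the 9 licensing genes was called.

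In GFP+ cells, members were called in both directions between the sources. By TMM scaling 10 members were higher and 14 lower in vitro of 40, against 48.3% and 19.7% of 11822 genes. The median log2 difference was -0.05 over the members and 0.67 over all genes. That split depends on the scaling. With DESeq2 size factors, 3 members were higher and 21 lower, beside 4687 and 3473 of 11822 genes. The median of all genes then moved to 0.22. Among those lower in vitro under both scalings were Cdc6 (log2 fold change -1.80, SE 0.42, adjusted p = 3.76e-05), Rrm2 (log2 fold change -1.39, SE 0.18, adjusted p = 1.29e-10), Mcm3 (log2 fold change -1.24, SE 0.23, adjusted p = 9.71e-07), Mcm4 (-0.86, SE 0.23), Mcm5 (-1.09, SE 0.37), Mcm7 (-0.58, SE 0.15) and Cdc45 (-0.93, SE 0.49). Mcm5 was no longer called without the second GFP+ embryo library, at log2 -0.07. Cdc45 was no longer called without the third (log2 -0.20) or the fifth (-0.70). Among those higher under both were Cdt1 (log2 fold change 0.97, SE 0.24, adjusted p = 0.000955) and Rfc3 (log2 fold change 0.91, SE 0.17, adjusted p = 4.35e-05). Gmnn (0.66), Pole (1.20), Tyms (0.64) and 2810417H13Rik (0.62) were called higher with TMM and not with DESeq2 size factors, and Pole was also not called without the first or without the fifth GFP+ embryo library (log2 0.82 and 0.82). Pcna was at log2 0.49 with TMM and -0.01 with DESeq2 size factors.

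**Figure D4:**
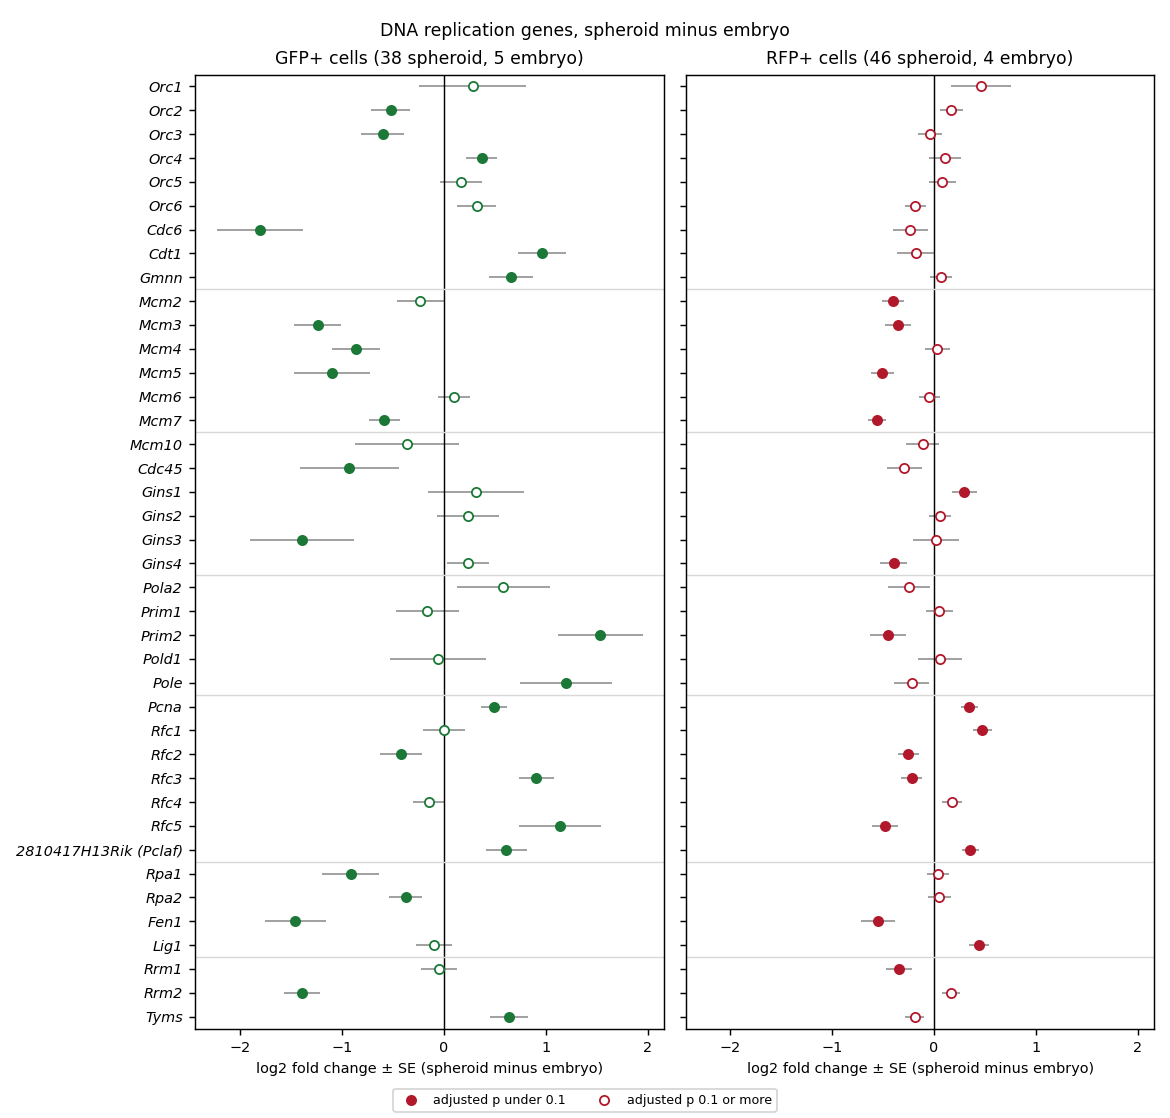
Difference between spheroid and embryo for each replication gene, in GFP+ cells (left) and RFP+ cells (right), with TMM scaling. The x axis is the log2 fold change in vitro minus in vivo, bars are 1 SE and filled points have an edgeR adjusted p under 0.1. GFP+ values run from -1.80 (Cdc6) to 1.54 (Prim2), and RFP+ values stay between -0.56 and 0.47.

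Ordered by group median CPM, in vitro GFP+ cells were lowest for 21 of the 40 members and in vivo GFP+ cells for 18. In vivo RFP+ cells were highest for 22 and in vitro RFP+ cells for 11. These in vitro GFP+ medians were taken over all 38 libraries. The same order was not taken over all genes, and in vivo GFP+ libraries had fewer genes of any kind detected than in vivo RFP+ libraries. The RFP+ groups were not called different for 24 of the 40 members, beside 6402 of all 11147 genes tested. The GFP+ groups were not called different for 16 members, beside 3786 of 11822 genes. Levels of different genes were compared per length, as TPM with summed exon lengths of GENCODE M21. Rrm2 was the highest member in 3 groups, with a median of 1141 TPM in in vivo GFP+, 880 TPM in in vivo RFP+ and 999.6 TPM in in vitro RFP+ libraries. In in vitro GFP+ libraries Pcna led with a median of 447 TPM and Rrm2 followed with 424 TPM. The ring subunits Mcm2 to Mcm7, which form the helicase in equal numbers, differed from the lowest (Mcm2) to the highest by 3.23-fold to 3.94-fold in median TPM in the 4 groups. In in vitro RFP+ libraries they ran from 74.7 TPM (Mcm2) to 295 TPM (Mcm4). Without scaling by length, the medians of these 2 genes there were 180.4 and 366 CPM. The lengths, 6956 bases for Mcm2 and 3589 for Mcm4, cover all annotated exons and may exceed the expressed mRNA. How far the TPM differences between genes rest on these lengths was not tested.

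The rest of the replication and cell cycle programme was read from lists of genes that are not members. Of all genes tested in vitro, 37.8% were called higher in RFP+ cells and 40.1% lower. Of 48 other replication genes tested in vitro, 41 were higher in RFP+ cells and 4 lower, with a median log2 difference of 0.72. Among them were the histone chaperone Nasp (log2 fold change 1.12, SE 0.046, adjusted p = 5.59e-40) and the thymidylate kinase Dtymk (log2 fold change 0.94, SE 0.044, adjusted p = 5.21e-36). Lower were Dbf4, the activator of the Cdc7 kinase (log2 fold change -0.50, SE 0.061, adjusted p = 3.51e-12), and the mismatch repair gene Msh6 (log2 fold change -0.35, SE 0.067, adjusted p = 3.01e-06), together with 2 others. In vivo 4 of 47 were higher (8.51%) and 1 lower (2.13%), beside 6.21% and 3.88% of all genes. Dut, which removes dUTP, was at 67.6 to 134 CPM in GFP+ and 304 to 389 CPM in RFP+ libraries (log2 fold change 1.75, SE 0.37, adjusted p = 0.012). The salvage kinase Dck was lower in RFP+ cells, at 66.5 to 124 CPM against 126 to 652 CPM (log2 fold change -1.73, SE 0.48, adjusted p = 0.0561).

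Genes of S phase entry were split. Of 26 E2F and S phase entry genes tested in vitro, 20 were higher in RFP+ cells and 5 lower, beside 37.8% and 40.1% of all genes. In vivo 3 of 23 were higher (13%) and none lower, beside 6.21% and 3.88% of all genes. By edgeR, 4 of the 23 (17.4%) were at an unadjusted p under 0.05, beside 16.2% of all genes. Cdk4, the kinase of G1, was higher in both sources, with log2 fold change 0.66, SE 0.028, adjusted p = 2.75e-39 in vitro and log2 fold change 0.96, SE 0.25, adjusted p = 0.0253 in vivo. Its in vivo libraries were at 496 to 1440 CPM (GFP+) and 1838 to 2254 CPM (RFP+). Mycn, a factor that drives growth and cycling, was higher in vitro (log2 fold change 2.16, SE 0.095, adjusted p = 2.54e-37). Rb1, which restrains E2F, was lower in RFP+ cells in vitro, at 2.29 to 29.2 CPM against 11.4 to 105 CPM (log2 fold change -1.83, SE 0.14, adjusted p = 1.95e-22). Of 4 CDK inhibitors tested in vitro, 3 were lower in RFP+ cells and 1 higher. Cdkn1a (p21), which binds CDKs and Pcna, was at 356 to 692 CPM in GFP+ and 5.18 to 150.3 CPM in RFP+ libraries, without overlap (log2 fold change -3.12, SE 0.12, adjusted p = 7.39e-41). In embryos, Cdkn1a stayed at 0 to 1.09 CPM in GFP+ and 0 to 5.18 CPM in RFP+ libraries. Cdkn2b was at 2.63 to 46.2 CPM and 0 to 7.51 CPM in vitro (log2 fold change -3.15, SE 0.25, adjusted p = 5.91e-22). Its counts were 0 in all 9 embryo libraries. Of the 12 replication checkpoint genes, 6 were higher and 5 lower in RFP+ cells in vitro, and of 11 tested in vivo none was called (edgeR, 0 at an unadjusted p under 0.05, and the other tools were not run on this list).

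Mitosis genes, which act after replication is complete, went with the replication genes in vitro. There 40 of 42 were higher in RFP+ cells and none lower (median log2 0.64), beside 37.8% and 40.1% of all genes. In vivo 2 of 42 were higher, Spc24 (log2 fold change 2.50, SE 0.58, adjusted p = 0.0166) and Ube2c (log2 fold change 1.67, SE 0.45, adjusted p = 0.0372), and Kif23 was lower (log2 fold change -1.14, SE 0.36, adjusted p = 0.0901). These were 4.76% higher and 2.38% lower, beside 6.21% and 3.88% of all genes. Between spheroid and embryo, 18 of 42 were lower in vitro in GFP+ cells and 6 higher, beside 19.7% and 48.3% of all genes. In RFP+ cells 23 were lower and 6 higher, beside 20.1% and 22.5% of all genes. Other measures moved with the populations too. In vivo, GFP+ libraries had fewer genes detected and more cardiomyocyte marker RNA than RFP+ libraries, as given above. Of 4 cardiomyocyte markers tested in vitro, 3 were called lower in RFP+ cells and 0 higher, beside 40.1% and 37.8% of all genes. Ttn was at log2 -3.31 (SE 0.36) and Tnni1 at -1.94 (SE 0.29). Their medians were 21.5 and 22.1 CPM in GFP+ against 3.31 and 13.5 CPM in RFP+ libraries. Other markers of the list had the higher median in RFP+ libraries, among them Actc1 (2.66 CPM in GFP+, 17.4 in RFP+), Myl7 (2.00 and 6.91) and Myl4 (1.20 and 2.24). Single GFP+ libraries reached 240 CPM for Actc1, 370 for Myl7 and 151 for Myl4. Endothelial, endoderm and blood markers reached higher sums in RFP+ embryo libraries, with ranges that overlapped. Pluripotency markers (6 genes) summed to 0.856 to 8.14 CPM in RFP+ and 0 to 0.438 CPM in GFP+ embryo libraries. The list for neural and surface ectoderm (5 genes) went the other way, at 88.15 to 151.7 CPM in RFP+ and 151.2 to 310 CPM in GFP+ libraries. Its gene Krt8 was called lower in RFP+ cells in vivo (log2 -1.41, SE 0.42). Endothelial markers (7 genes) summed to 56.5 to 358 CPM against 0 to 89.9 CPM in GFP+ libraries, where Pecam1, Cdh5, Emcn and Tie1 were at 0. Tek had the higher mean in GFP+ libraries, at 30.1 CPM (0 to 89.9) against 14.8 CPM (3.7 to 21.9). Of 3 endothelial genes tested in vivo, only Emcn was called, higher in RFP+ cells. Endoderm markers (7 genes) summed to 8.67 to 651 CPM against 0 to 21.4 CPM, almost all from Epcam and Cldn6. Blood markers (7 genes) reached 1175 CPM in the first RFP+ library, from Hbb-bh1, Hba-x and Hbb-y, and had a median of 0.706 CPM over the 4. Without that library 3 members (7.5%) were called higher in vivo, beside 5.42% of all genes, with a median log2 of 0.36 beside 0.09 over all genes. In vitro, markers of pluripotency (6 genes) summed to 43.6 to 1574 CPM in GFP+ and 7.05 to 572 CPM in RFP+ libraries, and markers of endoderm to 176 to 519 CPM and 18.2 to 182 CPM. The endoderm sum came mostly from the epithelial genes Epcam (mean 122 and 28.3 CPM) and Cldn6 (161 and 58.4 CPM), while the endoderm factor Foxa2 was at a mean of 2.35 and 9.11 CPM and Sox17 at 1.32 and 2.12 CPM. In the neural and surface ectoderm list in vitro, Krt8, a keratin of simple epithelia, made up nearly all of the sum, at a mean of 1009 CPM in GFP+ and 151 CPM in RFP+ libraries. The other 4 genes, Sox1, Pax6, Sox3 and Tfap2a, each had means under 5 CPM in both. The part of these marker genes in the replication gene differences was not tested in either source. In vitro, blood markers summed to at most 15.8 CPM, where Hbb-bh1, Hbb-y and Hba-a1 were at 0, and endothelial markers to at most 145 CPM.

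**Figure D5:**
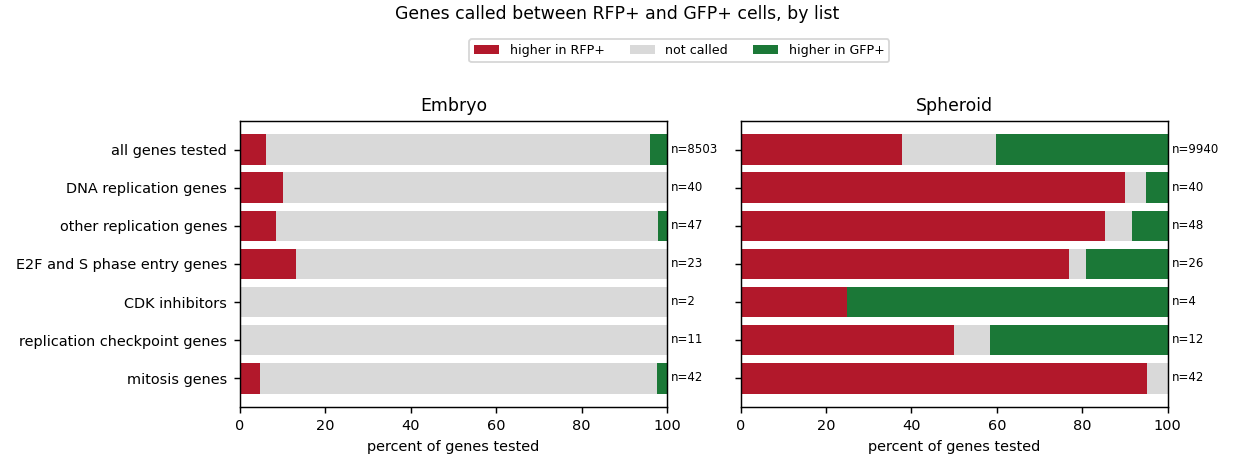
Share of genes called higher in RFP+ cells (red), higher in GFP+ cells (green) and not called (grey) by edgeR at an adjusted p under 0.1, for all genes tested, the 40 replication genes and 5 related lists, in embryos (left) and spheroids (right). In vitro the red share is 90% for the replication genes and 37.8% for all genes, and in vivo it is 10% and 6.21%.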

How the data were processed

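RNA was sequenced from pools of 10 sorted cells, with cDNA made by template switching and amplified by PCR, and no molecular identifiers are described. The authors trimmed reads (Trimmomatic 0.36), mapped them to mm10 (HISAT2 2.0.4) and counted reads on genes (featureCounts 1.5.2). The deposited values are whole counts without normalization for 93 libraries. Depth is 6288 to 5658882 counts per library, and limits from counts cover counting error only.

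The test was that of edgeR 4.0.16 run in R 4.3.3 (TMM, filterByExpr with minimum count 10, minimum total 15 and minimum proportion 0.7, quasi-likelihood F-test, Benjamini-Hochberg over all genes tested, call at adjusted p under 0.1). Groups came from sample titles, and 4 comparisons of 2 groups each were fitted separately, together with the difference between sources. All 40 members passed the filter in every comparison. The study used DESeq2, which is an alternative here (1.42.0), as are limma-voom with 1 variance per group (limma 3.58.1), other size factors, no filter, a threshold of 0.05, libraries of 100000 counts or more, summed wells, plate row as a covariate and leaving out each embryo library. The fits were checked on simulated counts. CPM use TMM over all 93 libraries.

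The members and the gene lists were chosen with earlier results of these data known. Members described in full are those called in vivo or for the difference between sources, the 10 of largest change in vitro, Mcm2 to Mcm7, Cdt1, Gmnn, Pcna, 2810417H13Rik, Rrm1 and Rrm2, 20 in all. Orc4, Prim1, Prim2, Gins4 and Rfc5 were added after their values were seen. From each other list, the 2 genes of smallest adjusted p in each direction could be named, with Cdkn1a. The embryo values of Cdkn2b and the in vitro values of Actc1, Myl7 and Myl4 were added after they were seen. Of 24514 symbols, 23684 had exon lengths in GENCODE M21. For 9 members (Orc2, Orc4, Orc6, Mcm7, Gins2, Rfc2, Rfc4, Rfc5 and Fen1) an exon overlaps another gene of the table on the other strand, and reads of both cannot be told apart if strand was not used.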

Additional observations from a re-analysis of the deposited data

Results flagged for a closer look

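Within the embryo groups of 4 and 5 libraries, 80 combinations of member and group were examined for a library far from the others, of which chance marks about 1 in 20, and 6 were found. In GFP+ cells these were Orc3 in 1 library at 45.8 CPM, the lowest of the 5, and Prim1 (1.25 CPM) and Rpa1 (6.25 CPM), both lowest in the third of the GFP+ libraries. In RFP+ cells the third library stood apart for 3 subunits of the origin recognition complex, with Orc1 at 2.57 CPM, below the others, and Orc4 at 283 CPM and Orc5 at 195 CPM, above the others. None of these 6 genes was called in vivo.

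The change of Rrm2 between RFP+ and GFP+ cells was called different between the sources, the same result as given above. Its in vitro log2 fold change was 1.73 above the in vivo one (1.30 against -0.44), by the test with separate standard errors. By that test 2.5% of the members and 2.4% of 8182 genes were called higher in vitro.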

How the results depend on the processing

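The in vitro difference between RFP+ and GFP+ cells kept 36 members higher and 2 lower under DESeq2, both other scalings, the stricter threshold, limma-voom, libraries of 100000 counts or more, summed wells and plate row as a covariate, and gave 37 and 2 without the filter. In vivo, limma-voom called 12 members, all higher (30%), with a median log2 of 0.91, beside 21.5% of all genes higher and a median of 1.29 over all genes. Leaving out 1 embryo library gave 2 to 7 members called, 2 to 6 of them higher and 0 to 1 lower, with the fewest (2) without the second or the third RFP+ library and the most (7) without the third GFP+ library. In these fits 5% to 15% of members and 4.56% to 8.98% of all genes were called higher. Without the third RFP+ library the median was 0.59. Among genes called in vivo, 61.5% were higher in RFP+ cells in the fit reported, 80.5% under limma-voom and 81.9% without the filter.

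For GFP+ cells between the sources, DESeq2 called 5 members higher (median log2 -0.50) and edgeR with DESeq2 size factors 3 (median -0.51). Limma-voom called 5 in all, 3 higher and 2 lower (median 0.45). Of all genes, 40.4%, 39.6% and 14.4% were called higher in these 3 fits, with medians of 0.21, 0.22 and 2.05. Under limma-voom 592 of 11822 genes were lower. Pcna turned to -0.0029 under DESeq2 and -0.0101 with DESeq2 size factors, and Mcm5 to 0.76 and Cdc45 to 4.17 under limma-voom. The scaling changed the split by construction, and the cause of the limma-voom values was not tested. For RFP+ cells limma-voom called 8 members, 4 higher and 4 lower, beside 814 and 1311 of 11147 genes. The difference between sources was called for 1 to 2 members when 1 embryo library was left out (2 without the first or the third GFP+ library). In these fits 2.5% to 5% of members and 1.38% to 3.27% of all genes were called higher in vitro. The limma-voom interaction called 4 members, 1 higher and 3 lower in vitro, beside 502 and 920 of 12655 genes. Over all alternatives, 465 values of single members kept direction and call, 52 kept only the direction and 4 reversed. Leaving out libraries under 100000 counts removed none from the RFP+ comparison between sources, so it gave no value. Plate row as a covariate was the only blocked fit in vitro. No paired analysis was possible because the labels give no replicate numbers shared between groups, and in vivo the populations share no plate row. The limits are 4 to 5 libraries per embryo group, GFP+ embryo libraries in which several members had no read, and wells not tied to embryos.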
